A study of Mus musculus with 6 samples.

Results

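The genes described here are those that encode the proteins of the mitochondrial ribosome, in primary mouse epidermal keratinocytes after transfection with the microRNA miR-148a. Members were chosen by name: every mouse gene whose symbol is Mrpl or Mrps followed by a digit. This gave 78 genes out of 25112 named genes in the table, 49 of the large subunit (Mrpl) and 29 of the small subunit (Mrps). All cells came from wild-type C57BL/6 pups on postnatal day 1 to 3 and were grown at 0.05 mM calcium, which holds keratinocytes in a dividing state. They received either the control small RNA miR-Control (3 libraries) or pro-miR-148a (3 libraries), each at 200 nM, and RNA was collected after 48 h. The labels do not say whether the 3 libraries of a group are separate cultures or animals, so the p-values measure the spread between these libraries, which may be technical. The title of miR-148a replicate 3 repeats the sample number 1 of replicate 1, and it was counted as a library of its own. What was analysed is the authors' deposited table of the comparison, with 1 row per RefSeq transcript and no value per library, so values by sample and library depths are unknown.

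Mitochondria carry their own ribosomes, which make a small set of membrane subunits of the respiratory chain and the ATP synthase from the mitochondrial genome. The ribosomal RNAs of these particles come from mitochondrial DNA, but all of their proteins are encoded in the nucleus, made in the cytoplasm and imported. The small subunit reads the messenger RNA, and the large subunit joins amino acids and releases the chain through a tunnel that faces the inner membrane. Some of the proteins descend from bacterial ribosomal proteins, and others are found only in mitochondria. A dividing cell must make enough of these particles to supply both daughters.

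A value in the table consists of a base mean (the mean normalized count of a transcript over the libraries), a log2 fold change with its standard error (SE), and an adjusted p-value. The file does not name the numerator of the fold change. A microRNA finds its transcripts through its seed, bases 2 to 8, shown here in capitals for miR-148a-3p because the reading of the sign turns on it (RefSeq sequence, GRCm38.p6).

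miR-148a-3p: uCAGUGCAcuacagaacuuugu

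Its 7-base complement in a transcript is TGCACTG (a 7mer-m8 site), and TGCACTGA is an 8mer. Per the authors' deposited table the 406 tested genes with an 8mer in the 3' untranslated region (UTR) had a median log2 fold change of 0.11 as deposited, the 1047 with a 7mer-m8 alone 0.05, and the 8421 with neither -0.01. MicroRNAs lower the transcripts that they pair with. The median UTR length was 2285 bases with an 8mer, 2424 with a 7mer-m8 alone and 976 with neither. The classes were not matched for length, and its part in the difference was not tested. With that limit, the deposited values were read as control over miR-148a, the word order of the table's title. Every sign below is turned, so that a positive value means higher with miR-148a. All directions below rest on that reading and would turn together. The Mir148a gene had a row at a base mean of 0.161 (the authors' deposited table), which reads the long precursor, if anything, so delivery of the mature microRNA cannot be checked here.

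The cells carried the keratinocyte transcripts Krt5 (base mean 630448), Perp (207541) and Sfn (84961) per the authors' deposited table, while Krt14 stood at 40.3 and Trp63 was listed at 0, both with several rows. Of 12 tested keratinocyte markers 2 were higher with miR-148a and 5 lower, among the latter Krt1 and Krt10 of the differentiating layers. Of the other markers, 7 of 10 tested fibroblast genes were lower and none higher, with Col1a1 at a base mean of 11119 per the authors' deposited table. For immune cells 3 of 4 were lower (Ptprc, with several rows, and Cd207, with 1 row, were listed at 0). For melanocytes 1 of 5 was lower, and for muscle the 1 tested, Acta2, was lower. Of the endothelial genes 2 of 3 were higher (Kdr and Flt1) and Vwf was lower. Pecam1, with several rows, and Cldn5, with 1 row, were listed at 0. Cdh5, with 1 row, had a base mean of 0.332 per the authors' deposited table. Genes with several rows often had low base means here, as described next. The 1 tested erythroid gene did not pass. The part of these other cells in the results below was not tested.

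Whether a mitochondrial ribosomal gene could be measured went with the number of RefSeq transcripts it has in the table. All 53 members with a single transcript row had base means between 500.2 and 3269, with a median of 1464. The 25 members with 2 or more rows were far lower: the highest row had a median base mean of 1.68, 2 of the 25 reached a base mean of 100 (Mrpl15 at 566 and Mrpl1 at 213 per the authors' deposited table), and 7 were listed at 0 in every row. Those 7 are Mrpl10, Mrpl55, Mrps11, Mrps18b, Mrps24, Mrps33 and Mrps36. Another 7 (Mrpl2, Mrpl42, Mrpl48, Mrpl58, Mrps2, Mrps21 and Mrps23) had base means of at most 2.24 and no adjusted p. No level can be given for these 14 genes. Over all genes, 34.3% of genes with 1 row and 7.68% of those with more reached a base mean of 100. Several rows were found for 13 of the 29 small subunit genes and 12 of the 49 large subunit genes.

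**Figure D1:**
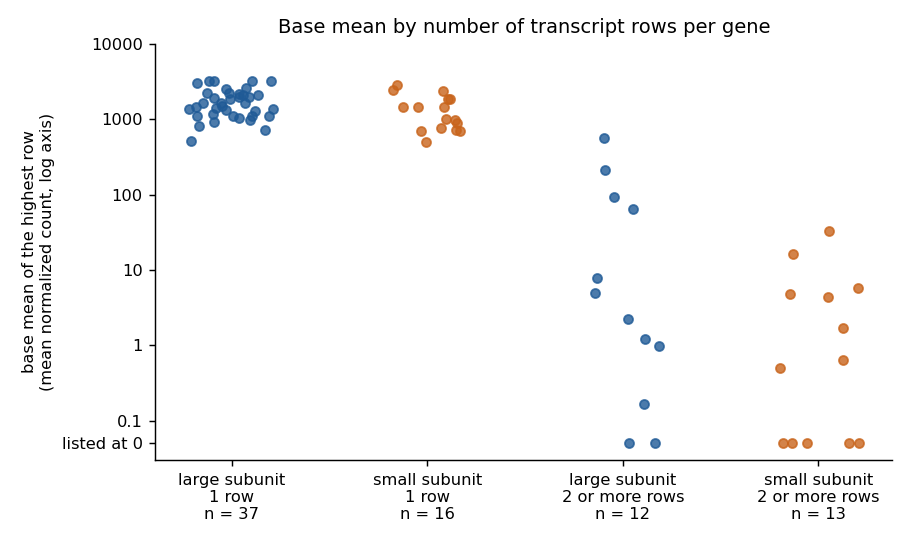
Base mean of the highest transcript row of each of the 78 mitochondrial ribosomal protein genes (vertical log axis, with genes listed at 0 drawn at the bottom), grouped by subunit and by the number of RefSeq rows per gene. Each point is a gene. The 53 genes with 1 row lie between 500.2 and 3269, and 23 of the 25 genes with more rows lie below 100.

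Transcripts of the mitochondrial ribosome were more often higher than lower with miR-148a, by small amounts, with 47 of 64 log2 fold changes above 0. Of the 64 members with an adjusted p-value per the authors' deposited table, 24 rose (37.5%), 5 fell (7.81%) and 35 did not pass the threshold of 0.05. Over all 11038 genes tested, 33.5% passed, 16.7% of them upward and 16.8% downward as shares of the genes tested. The median log2 fold change of the members was 0.21, a 1.15-fold difference, against -0.01 for all genes tested. All 29 changed members have a single transcript row. Of the 53 members with 1 row 45.3% rose and 9.43% fell. Among all genes with 1 row the shares were 19.7% and 19.5%. Among the 2840 genes with 1 row and a base mean in the members' range, 27.9% rose and 23.1% fell. The 11 tested members with several rows had a median SE of 0.36, against 0.09 with 1 row, and none of them passed. Mrpl15 was the most precise of the 11, with 0.19 ± 0.12 SE (adjusted p = 0.208) per the authors' deposited table.

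No member moved by more than 1.5-fold in either direction, whereas 15.0% of the genes with 1 row in the same range of base means did. The narrow range is not particular to the members. With 1 row, 0 of 56 tested genes of the cytoplasmic ribosome and 1 of 52 nuclear genes of oxidative phosphorylation moved so far. So did 0 of 16 mitochondrial assembly factors, 0 of 6 transcription genes, 1 of 10 translation factors and 1 of 8 transfer RNA synthetases. The log2 fold changes of the 53 members with 1 row ran from -0.39 to 0.53, with a median of 0.21, and 40 were above 0. Their standard deviation of 0.24 was larger than their median SE of 0.09. For 21 of the 53, the 95% interval from the SE missed the members' own median, 6 lying above it and 15 below. The genes share the same libraries and are not independent of each other.

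**Figure D2:**
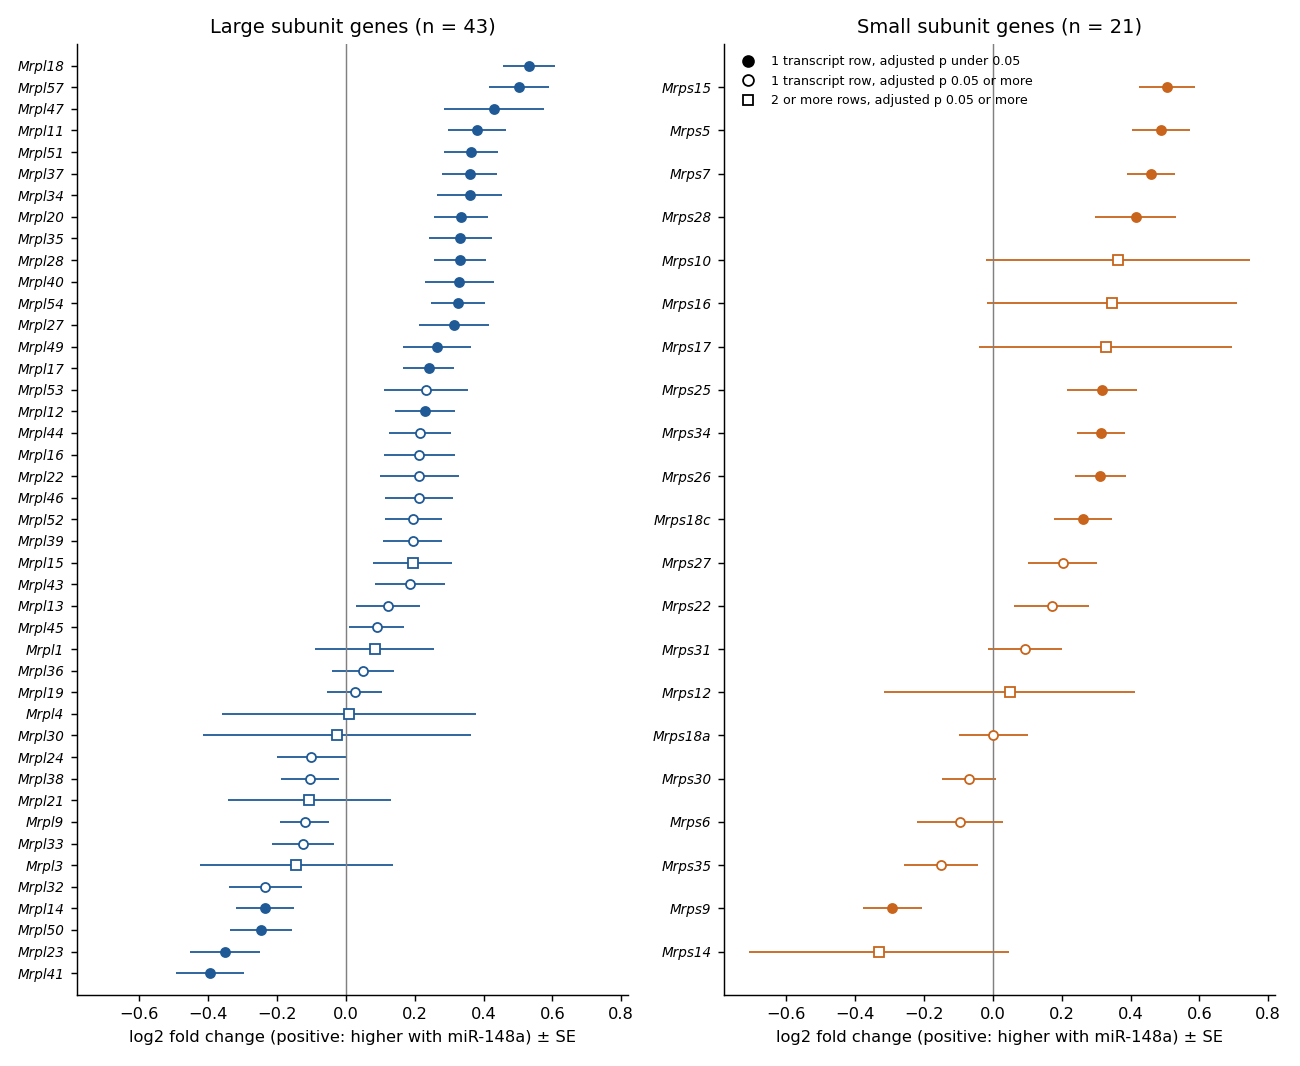
Log2 fold change of the 64 mitochondrial ribosomal protein genes with an adjusted p-value (horizontal axis, positive values higher with miR-148a, bars 1 SE), ranked within the large subunit (left) and the small subunit (right). Filled symbols passed an adjusted p of 0.05: 16 rose and 4 fell in the large subunit, 8 rose and 1 fell in the small subunit. Squares mark genes with 2 or more transcript rows.

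Genes of both subunits rose, in nearly the same shares when all tested members are counted. Of all genes tested 16.7% rose and 16.8% fell. Of 43 tested large subunit genes 16 rose (37.2%), 4 fell and 23 missed the threshold, and the median log2 fold change was 0.20. Of 21 tested small subunit genes 8 rose (38.1%), 1 fell and 12 missed the threshold, and the median was 0.26. The large minus small difference of medians was -0.07. Over members with 1 row the medians were 0.21 for 37 large subunit genes and 0.23 for 16 small subunit genes, a difference of -0.02. Of these large subunit genes 43.2% rose and 10.8% fell, and of the small subunit genes 50% and 6.25%. Among all genes with 1 row the shares were 19.7% and 19.5%. No test was made of these differences, because genes are not replicates.

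A gene's symbol does not always name its place in the particle. In the structure of the mammalian ribosome, Mrps30 and Mrps18a sit in the large subunit, and the product of Mrps36 belongs to the alpha-ketoglutarate dehydrogenase complex. Neither of the first 2 passed the test: Mrps30 had a log2 fold change of -0.07 ± 0.08 SE and Mrps18a 0.00 (0.0019 ± 0.099 SE) per the authors' deposited table. With genes placed by structure, the medians were 0.19 for 45 large subunit genes and 0.31 for 19 small subunit genes, a difference of -0.12, and the numbers that rose or fell in each subunit were the same. Mrps18a, Mrps18b and Mrps18c are paralogs related to bacterial protein S18, and their products sit at different places in the ribosome. Mrps18c, which holds the place of the bacterial protein, rose (0.26 ± 0.08 SE, adjusted p = 0.00832) per the authors' deposited table, and Mrps18b was listed at 0.

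Levels can be compared between genes only per length of transcript. Among members with 1 row, the base mean per 1000 bases ran from 127 for Mrps25 to 6764 for Mrpl33. The median was 1143 in the large subunit and 597 in the small subunit, with ranges of 154 to 6764 and 127 to 2633 that overlap widely. The large subunit members with the highest level per length were Mrpl33 (6764), Mrpl52 (6143) and Mrpl20 (4239 per 1000 bases). In the small subunit they were Mrps34 (2633), Mrps18c (2249) and Mrps15 (2015 per 1000 bases). Of these 6, Mrpl33 had a log2 fold change of -0.12 ± 0.09 SE and Mrpl52 0.20 ± 0.08 SE per the authors' deposited table, and neither passed, while the others rose.

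In the large subunit, the gene with the largest rise was Mrpl18, whose product is a relative of a bacterial protein in the central protuberance, the crest that faces the small subunit. Per the authors' deposited table it had a base mean of 1872 and rose 1.45-fold (log2 fold change 0.53 ± 0.08 SE, 95% interval 0.38 to 0.68, adjusted p = 3.34e-11). Mrpl57, a short subunit found only in mitochondria, rose 1.42-fold (0.50 ± 0.09 SE, adjusted p = 8.02e-08) per the authors' deposited table. These changes differ by less than their errors. Mrpl47, one of the proteins around the mouth of the exit tunnel, rose by 0.43 ± 0.15 SE (adjusted p = 0.0123) at a base mean of 518 per the authors' deposited table. Its SE is the largest among members with 1 row. Beside Mrpl11 and Mrpl12, described next, the other 11 that rose were Mrpl17, Mrpl20, Mrpl27, Mrpl28, Mrpl34, Mrpl35, Mrpl37, Mrpl40, Mrpl49, Mrpl51 and Mrpl54, with log2 fold changes from 0.24 (Mrpl17) to 0.36 (Mrpl51) per the authors' deposited table.

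The stalk of the large subunit is the arm that receives the translation factors. Of its 5 genes, a group assembled after the values were seen, 3 rose: Mrpl11, at the base of the stalk (0.38 ± 0.08 SE, adjusted p = 4.12e-05), Mrpl54 (0.33 ± 0.08 SE, adjusted p = 0.000204) and Mrpl12 (0.23 ± 0.09 SE, adjusted p = 0.0290), per the authors' deposited table. Mrpl12, which forms the mobile tip and also binds the mitochondrial RNA polymerase, had the highest base mean of all members, at 3269 per the authors' deposited table. Mrpl53 had 0.23 ± 0.12 SE and did not pass (adjusted p = 0.142), and Mrpl10, which ties the tip to the base, was listed at 0 per the authors' deposited table. Mrpl12 was also the member nearest to the threshold among those that passed. Just outside it lay Mrpl52 (0.20 ± 0.08 SE, adjusted p = 0.0526) and Mrpl44, which has the fold of a double-strand RNase (0.21 ± 0.09 SE, adjusted p = 0.0540), per the authors' deposited table. Mrpl49 lay just inside it (0.26 ± 0.10 SE, adjusted p = 0.0246) per the authors' deposited table.

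Transcripts for proteins at the exit of the tunnel did not move one way. Of 6 genes, likewise grouped after the values were seen, Mrpl47 and Mrpl17 (0.24 ± 0.07 SE) rose and Mrpl23 fell (-0.35 ± 0.10 SE, adjusted p = 0.00290) per the authors' deposited table. Mrpl22 (0.21 ± 0.11 SE), Mrpl24 (-0.10 ± 0.10 SE) and Mrpl45, which holds the ribosome to the inner membrane (0.09 ± 0.08 SE), did not pass per the authors' deposited table. RefSeq also lists a pseudogene of Mrpl23, named Mrpl23-ps1, and one of Mrpl27, named Mrpl27-ps, which have no row here. How shared reads were counted is not stated in the sources used here.

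The other large subunit genes that fell were Mrpl41, Mrpl50 and Mrpl14. Mrpl41, found only in mitochondria, fell most of all members, 1.31-fold (log2 fold change -0.39 ± 0.10 SE, adjusted p = 0.000385, base mean 1413) per the authors' deposited table. Mrpl50, also specific to mitochondria, had -0.25 ± 0.09 SE (adjusted p = 0.0210) per the authors' deposited table. Mrpl14, at the face that meets the small subunit and the docking site of the assembly factor Malsu1, had -0.23 ± 0.09 SE (adjusted p = 0.0210) per the authors' deposited table. Malsu1 itself had 0.12 ± 0.12 SE and did not pass per the authors' deposited table. Mrpl32 had nearly the same fold change as Mrpl14, -0.23 ± 0.11 SE, and did not pass (adjusted p = 0.0778) per the authors' deposited table. Mrpl58, a hydrolase built into the large subunit that frees stalled chains, could not be compared, at a base mean of 0.975 per the authors' deposited table.

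In the small subunit, the rises were led by genes for relatives of bacterial proteins. Mrps15, which binds the ribosomal RNA of the body of the particle, rose 1.42-fold (0.51 ± 0.08 SE, adjusted p = 6.86e-09, base mean 1888) per the authors' deposited table. Mrps5, near the entrance for messenger RNA, rose 1.40-fold (0.49 ± 0.08 SE, adjusted p = 5.94e-08), and Mrps7, of the head of the particle, 1.37-fold (0.46 ± 0.07 SE, adjusted p = 6.32e-10) per the authors' deposited table. Mrps28 followed with 0.41 ± 0.12 SE (adjusted p = 0.00180) per the authors' deposited table. The intervals of these 4 genes overlap, so their order is not resolved. The mitochondria-specific Mrps25, Mrps34 and Mrps26 rose by 0.31 to 0.32, with SE of 0.07 to 0.10, per the authors' deposited table.

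Mrps9, a protein of the head, was the 1 small subunit gene that fell, 1.22-fold (-0.29 ± 0.09 SE, adjusted p = 0.00294, base mean 1457) per the authors' deposited table. Mrps27, a pentatricopeptide repeat protein that binds RNA, had 0.20 ± 0.10 SE and did not pass (adjusted p = 0.113) per the authors' deposited table. Mrps12, of the decoding centre, had a base mean of only 4.79 and a fold change of 0.05 ± 0.36 SE per the authors' deposited table, so nothing can be said of it.

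Members of either origin rose and fell. Of 39 tested genes for relatives of bacterial proteins 15 rose (38.5%) and 3 fell (7.69%), with a median of 0.21. Of 25 tested genes for mitochondria-specific proteins 9 rose (36%) and 2 fell (8%), with a median of 0.20. Over all genes tested the shares were 16.7% and 16.8%. Restricted to 1 row, the counts were 15 (53.6%) and 3 (10.7%) of 28, and 9 (36%) and 2 (8%) of 25. Over all genes with 1 row 19.7% rose and 19.5% fell. Mrps18a, though a paralog related to bacterial protein S18, was counted here as mitochondria-specific. No test was made of this contrast.

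Few of these genes hold a site for miR-148a. Of 77 members with an annotated 3' UTR (the longest per gene, GENCODE M21), 5 held a 7mer-m8 site (6.49%). All 5 were among the 63 tested members with a UTR (7.94%), against 14.7% of 9874 tested genes. The UTRs of the members are short, with a median of 390 bases against 1129 over tested genes, and the 2 shares are not matched for length. The 5 sites are shown with 11 bases on either side, because they bear on whether a member that fell could pair with the microRNA. Capitals mark the 7 bases that pair with the seed.

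Mrps9: gagcacagtcaTGCACTGaccaatggagg
Mrpl19: tggcactctctTGCACTGatttcacacag
Mrpl11: atatatgtgagTGCACTGtgtgcatgctt
Mrpl47: gaaaaatatggTGCACTGtgagatgataa
Mrps25: ttttagctatcTGCACTGttttcatagaa

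The sites of Mrps9 and Mrpl19 are followed by an A and are 8mers. Of the 5 members that fell, Mrps9 alone holds a site, which starts at base 65 of a UTR of 186 bases. Mrpl19, with its 8mer at base 3455 of 4090, had a log2 fold change of 0.03 ± 0.08 SE and did not pass per the authors' deposited table. Mrpl11, Mrpl47 and Mrps25 hold 7mer-m8 sites and rose, as given above. Among these members a site thus went with each outcome. Whether the site in Mrps9 is used was not tested.

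Promoters of nuclear genes for mitochondrial proteins are known for binding the factors NRF1 and GABP, an ETS-family factor. RefSeq promoter windows (250 bases before to 50 after the start of the gene, GRCm38.p6) were at hand for 69 members, in 75 windows. They were searched on both strands for GCGCANGCG (NRF1), CCGGAAG (ETS), AAGATGGCG (YY1), CACGTG (E-box) and TGACGTCA (CRE). Matches of different motifs did not overlap in these windows outside chromosome 18, and 4 pairs of matches of the same motif did. ETS matches stood in 34.7% of the members' windows, against 8.86% of all 32851 windows and 16.5% of the 10125 windows of tested genes. For NRF1 the shares were 21.3%, 6.25% and 11.6%, and for YY1 10.7%, 1.40% and 2.73%. The E-box, in 9.33% of members' windows, and CRE, in 2.67%, were no more frequent than among tested genes (9.83% and 2.96%). Several of the members' E-box windows are overlapping windows of the same gene, Mrpl2, and hold the same match. The members' windows include those of members without an adjusted p, such as Mrpl2. GC content had a median of 58.7% in members' windows and 60.3% in those of tested genes.

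Matches were found among members with each outcome. An NRF1 or ETS match stood in 9 of 21 windows of members that rose (42.9%), in 2 of 5 that fell and in 18 of 30 windows of those that did not pass (60.0%). Among windows of tested genes the share was 25.7%. ETS matches were found in 8 of the 21 windows of members that rose and in none of the 5 of members that fell. A match is a stretch of letters and not a measured binding site.

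**Figure D3:**
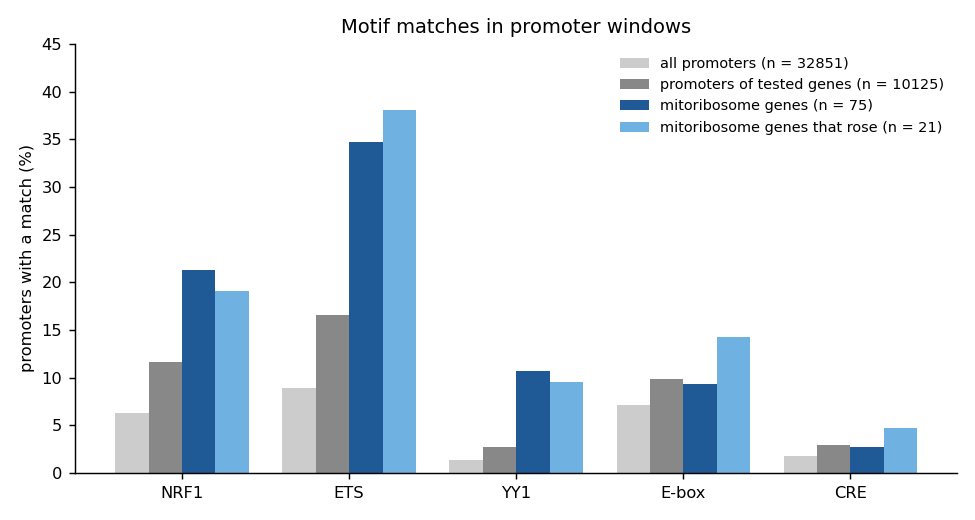
Share of promoter windows (vertical axis, percent) with at least 1 match of each motif, in all windows, in windows of tested genes, in those of mitochondrial ribosomal protein genes and in those of the members that rose. For ETS, NRF1 and YY1 the members' bars (34.7%, 21.3% and 10.7%) stand above those of tested genes.

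A pair of promoters of members that rose and a pair of members that fell are shown, chosen after their values were seen, to set windows with and without matches side by side. They do not stand for their groups, since only 9 of 21 windows of members that rose held an NRF1 or ETS match. Capitals mark matches of the motifs above, coordinates are those of GRCm38.p6, and each window is written in the direction of the gene.

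Mrpl57, chr14:57825989-57826288, plus strand: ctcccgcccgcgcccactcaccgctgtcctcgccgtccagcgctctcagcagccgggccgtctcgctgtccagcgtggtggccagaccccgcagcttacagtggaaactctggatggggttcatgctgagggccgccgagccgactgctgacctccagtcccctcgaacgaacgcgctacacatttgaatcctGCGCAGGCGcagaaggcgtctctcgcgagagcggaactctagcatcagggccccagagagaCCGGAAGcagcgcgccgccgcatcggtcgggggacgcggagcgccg
Mrps26, chr2:130563507-130563806, plus strand: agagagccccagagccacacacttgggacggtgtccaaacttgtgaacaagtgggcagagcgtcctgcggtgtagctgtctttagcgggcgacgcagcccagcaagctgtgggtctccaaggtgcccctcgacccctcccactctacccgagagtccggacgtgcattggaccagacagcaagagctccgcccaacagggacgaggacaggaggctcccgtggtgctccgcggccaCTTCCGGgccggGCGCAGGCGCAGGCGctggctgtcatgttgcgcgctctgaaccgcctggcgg
Mrpl41, chr2:24975049-24975348, minus strand: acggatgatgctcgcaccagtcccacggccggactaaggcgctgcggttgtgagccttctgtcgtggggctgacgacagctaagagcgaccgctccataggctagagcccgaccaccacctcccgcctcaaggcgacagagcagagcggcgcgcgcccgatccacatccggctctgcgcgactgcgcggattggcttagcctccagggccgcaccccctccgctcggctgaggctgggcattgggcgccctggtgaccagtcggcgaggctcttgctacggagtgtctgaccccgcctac
Mrps9, chr1:42850983-42851282, plus strand: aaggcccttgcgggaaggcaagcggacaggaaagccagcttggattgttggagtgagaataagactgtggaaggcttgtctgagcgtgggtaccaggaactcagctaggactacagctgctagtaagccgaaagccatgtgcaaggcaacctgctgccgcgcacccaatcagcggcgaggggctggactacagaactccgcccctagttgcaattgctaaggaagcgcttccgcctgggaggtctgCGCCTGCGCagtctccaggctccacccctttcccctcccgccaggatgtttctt

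Mrpl57 has an NRF1 match 57 bases before its start (position -57) and an ETS match at position 5 after it. Mrps26 (0.31 ± 0.08 SE, adjusted p = 0.000187 per the authors' deposited table) has an ETS match at -14 and a pair of overlapping NRF1 matches at -2 and 5. Mrps9, which fell, has an NRF1 match at -4, and the window of Mrpl41 has none of the motifs.

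Some subunits of the mitochondrial ribosome go by other names. Of 5 such genes 4 were tested: Chchd1 of the small subunit (0.25 ± 0.09 SE, adjusted p = 0.0241) and Gadd45gip1 of the large subunit (0.24 ± 0.09 SE, adjusted p = 0.0400) rose, per the authors' deposited table. Aurkaip1 had -0.00 (-0.0035 ± 0.074 SE) and Dap3, with several rows and a base mean of 8.31, had 0.09 ± 0.39 SE per the authors' deposited table.

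Genes that serve these ribosomes were taken from lists of their known roles. The shares to set beside each list are those of all genes tested, 16.7% higher and 16.8% lower. These lists are short, with 4 to 20 tested genes each. Among factors of mitochondrial translation 3 of 12 tested rose and 1 fell, with a median of 0.22. Per the authors' deposited table Mtfmt, which formylates the initiator transfer RNA, rose by 0.60 ± 0.13 SE, the elongation factor Gfm1 by 0.45 ± 0.08 SE and Lrpprc, which stabilizes mitochondrial messenger RNAs, by 0.41 ± 0.07 SE. Gfm2, a recycling factor with 5 rows and a base mean of 76.4, fell (-0.74 ± 0.26 SE, adjusted p = 0.0175) per the authors' deposited table. Tufm, the most familiar elongation factor of mitochondria, was listed at 0 in both of its rows.

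Of the assembly and ribosomal RNA factors 1 of 20 tested rose, 1 fell and 18 missed the threshold (median 0.11). Per the authors' deposited table Mterf3 rose by 0.36 ± 0.13 SE, and Mrm1, a methyltransferase of the large ribosomal RNA, fell (-0.52 ± 0.13 SE, adjusted p = 0.000354). Whether they differ from the ribosomal protein genes was not tested, and the median SE was 0.13 here against 0.10 in the members. Of 10 tested mitochondrial transfer RNA synthetases 3 rose and 1 fell, with a median of 0.17. Sars2 rose by 0.68 ± 0.12 SE (adjusted p = 2.12e-07) and Iars2 by 0.21 ± 0.06 SE, and Wars2 fell (-0.49 ± 0.15 SE), per the authors' deposited table. None of 9 tested genes of mitochondrial DNA transcription and RNA processing passed (median 0.06), against 33.5% of all genes tested.

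Of the nuclear regulators of mitochondrial genes, 4 of 10 were tested and 1 rose: Esrra, a nuclear receptor of energy metabolism (0.30 ± 0.07 SE, adjusted p = 0.000201), per the authors' deposited table. Gabpa, the DNA-binding part of GABP, had -0.02 ± 0.07 SE and Yy1 -0.10 ± 0.07 SE per the authors' deposited table, and neither passed. Myc, Ppargc1a, Ppargc1b and Pprc1 were listed at 0, and Nrf1 had a base mean of 0.166 per the authors' deposited table, all with several rows, so they were not measured.

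The nuclear genes of oxidative phosphorylation, whose complexes contain the products of mitochondrial ribosomes, rose in a share near that of the members. Of 60 tested 21 rose (35%), 4 fell (6.67%) and the rest did not pass, at a median of 0.11. The members' shares were 37.5% and 7.81%, at a median of 0.21, and those of all genes tested 16.7% and 16.8%. The median SE was 0.08 for oxidative phosphorylation and 0.10 for the members. Smaller changes pass where the SE is smaller, so the near shares do not mean changes of the same size. Ndufb7 (0.46 ± 0.08 SE) and Sdha (0.43 ± 0.06 SE) were among those that rose per the authors' deposited table. Among genes of the cytoplasmic ribosome 1 of 66 tested rose (1.52%) and 23 fell (34.8%), leaving 42 that did not pass. The median of the 66 was -0.12 and their median SE 0.06. Per the authors' deposited table Rps2 rose (0.25 ± 0.06 SE), and Rpl3 fell (-0.35 ± 0.06 SE, adjusted p = 3.31e-07). The differences between these groups and the members were not tested, since genes are not replicates.

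**Figure D4:**
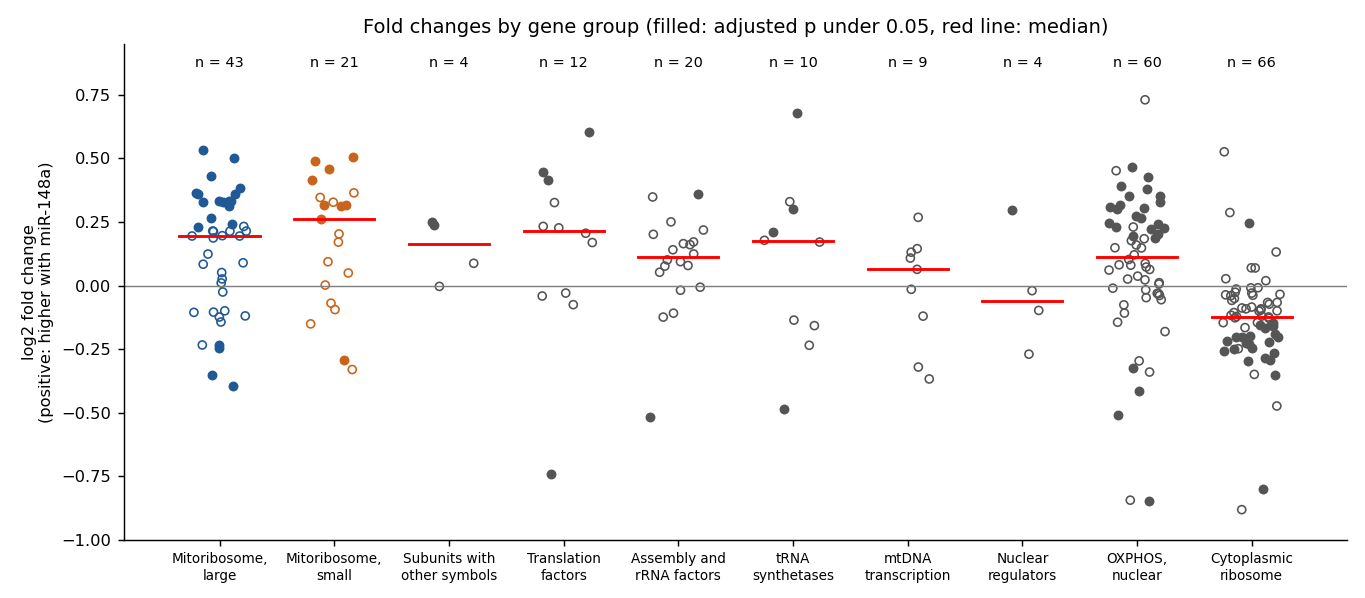
Log2 fold change (vertical axis, positive values higher with miR-148a) of tested genes in each group; points are genes, filled where the adjusted p was under 0.05, and the red line is the median. The medians of the large (0.20) and small (0.26) mitochondrial ribosome subunits lie above 0, as does that of oxidative phosphorylation (0.11). That of the cytoplasmic ribosome (-0.12) lies below it.

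The authors' deposited table of gene ontology (GO) categories holds no category named for the mitochondrial ribosome. In it, structural constituent of ribosome had 28 changed of 47 genes, and mitochondrion 18 of 75. The authors' adjusted p-values for over-representation in that deposited table were 8.58e-05 and 1. Neither category names its genes.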

How the data were processed

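RNA sequencing compared 3 control and 3 miR-148a libraries, grouped by the titles of the samples. Per the submitters' processing notes, DESeq2 and mm9 were used; aligner, counter and annotation: not given in the sources used here. The deposited columns, per the file headers, are base mean (a signal, read as normalized counts averaged over libraries), log2 fold change with its SE on the log2 scale, Wald score, p-value and its adjusted form; the authors' GO table gives numbers of genes and p-values. Benjamini-Hochberg adjustment over 11757 rows returned the deposited adjusted values to within a relative 0.00885; rows with a base mean under 3.56 have none. The SE never exceeds 0.39, even in weak rows, so their fold changes may have been shrunk toward 0.

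With no value per library, no test from library values was run here: the authors' adjusted p under 0.05 across all genes stands in. Adjusted values were computed anew only for alternatives given below, over 1 row per gene and, by a Wald test with the deposited SE, on centred fold changes. Rows were paired with symbols through RefSeq accessions (42739 of 42885, GRCm38.p6), and each gene was taken by its row with the highest base mean. As mm9 differs from the reference build, no coordinates were joined to the table. Lengths and 3' UTRs (at least 20 bases) came from GENCODE M21. The members, lists and rules were chosen with earlier results of these data known. Named are all changed members, the 8 highest and 8 lowest of them in full (only 5 fell), the 3 most abundant per subunit by length, the 2 nearest the threshold on each side, members without an adjusted p, members with a further known role, and up to 5 changed genes per list, except 1 that is not reported here; members named for their place in the particle, Mrpl32, Malsu1, Mrpl19 and the examples from oxidative phosphorylation and the cytoplasmic ribosome were picked with their values in view. Python 3.11.15, pandas 2.3.3 and scipy 1.17.1 were used.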

Additional observations from a re-analysis of the deposited data

How the results depend on the processing

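No paired analysis was possible because the table has no column per library; for the same reason no library could be left out, and no count-based fit, other normalization or pseudocount could be tried. At an adjusted p of 0.01 in place of 0.05, the members that fell went from 5 to 3 and those of the large subunit from 4 to 2, and Mrpl12, Mrpl14, Mrpl47, Mrpl49 and Mrpl50 no longer passed; the stricter threshold is the cause by construction. The large minus small difference of medians, -0.07, went to -0.0186 where the base mean had to reach 100 and to -0.0182 with 1-row members alone, and to -0.12 with subunits by structure; the cause was not tested. Otherwise counts and the difference stayed within 1.5 times, and the members' median within their median SE, under these alternatives and with the lowest tested row per gene, with adjustment over 1 row per gene, and with fold changes centred on the median of all genes tested (-0.01). Centring gave 27 higher in place of 24, and 19 in place of 16 in the large subunit: Mrpl39 (adjusted p = 0.0493), Mrpl44 (adjusted p = 0.0382) and Mrpl52 (adjusted p = 0.0362) passed by the Wald test. No named member changed direction, but only centring, on a median of -0.01, altered any fold change. These alternatives therefore could not test the directions, and the reading of the sign was not varied. The lowest tested row gave the same values, since no member has 2 tested rows. Precision is lowest for the 25 members with several rows, of which 14 have no adjusted p and 11 a median SE of 0.36; the cause was not tested.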

Other observations

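The split by number of transcript rows held in each list of genes that serve the mitochondrial ribosome. In the 6 lists, all 46 genes with 1 row had a base mean of at least 100, and of the 39 genes with more rows 2 did and 17 were listed at 0. In the cytoplasmic ribosome 56 of 57 genes with 1 row reached a base mean of 100, and 2 of 19 with more rows. Among nuclear genes of oxidative phosphorylation the counts were 49 of 53 and 1 of 27. Over all genes, 171 of the 1844 higher and 200 of the 1856 lower have 2 or more rows. The cause was not tested.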
